A study of Mus musculus with 9 samples.

Results

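Imprinted genes are expressed mainly from the copy inherited from 1 parent, and 40 mouse genes of this kind were followed here across neurosphere cultures. They were taken as every probe set of the array whose single gene symbol in the platform annotation was on the list. Of the 40 genes, 36 had such a probe set, with 96 probe sets of 45101 in the table and 36 of 18193 genes. Rtl1, Dio3 and Zrsr1 had no listed probe set. H19 was found only in a probe set annotated to both Mir675 and H19. From general knowledge of mouse imprinting, 22 of the listed genes were classed as paternally expressed, 15 as maternally expressed and 3 (Gnas, Grb10 and Blcap) as differing by isoform or tissue. The classes were not checked in these cells. A paternal or maternal class does not mean use of 1 copy in every tissue.

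The series held 9 Affymetrix mouse expression arrays of passage 3 neurospheres, which are floating balls of cells. The spheres came from C57BL/6J embryos of embryonic day 12.5. All grew in serum-free medium with heparin and the supplements N2 and B27. BMP NCSC were spheres from dorsal root ganglia (DRG) grown with bFGF and EGF at 20 ng/ml each and BMP4 at 10 ng/ml (3 arrays). The rNCSC were DRG spheres grown with the same bFGF and EGF but no BMP4 (3 arrays), and SCSC were spinal cord spheres in the medium of rNCSC (3 arrays). No transgene or deletion is given for any group. Whether a group's 3 arrays stand for different embryos or different cultures is not stated in the labels, so p-values reflect only spread among arrays that may be technical repeats.

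Imprinted genes lie in clusters in which methylation laid down in egg or sperm marks 1 parental copy. Through an imprinting control region, protein-coding genes or a noncoding RNA are then silenced on 1 copy, which need not be the methylated one. Paternally expressed genes of these clusters are often described as promoting growth of the embryo and maternally expressed ones as limiting it. Many imprinted genes are expressed in the developing nervous system, and several change with differentiation. The arrays measured the summed RNA of both copies, so no value below says which copy was in use.

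The cultures differed widely in cell type markers. The summed level of 8 neural progenitor markers was 12.54 to 12.65 in BMP NCSC, 15.50 to 15.63 in rNCSC and 15.58 to 15.64 in SCSC (log2 of summed linear values). Fabp7, Olig1, Olig2, Pax6, Prom1 and Sox1 were under 4 in BMP NCSC. Markers of neural crest and peripheral glia summed to 13.44 to 13.56 in BMP NCSC, 6.02 to 6.48 in rNCSC and 5.90 to 6.08 in SCSC, and Erbb3, Foxd3, Ngfr and Snai2 were under 4 in rNCSC although that group came from DRG. Mesenchyme and cartilage markers summed to 15.53 to 15.81 in BMP NCSC, 6.68 to 6.83 in rNCSC and 6.55 to 6.84 in SCSC. Meningeal fibroblast markers summed to 13.20 to 13.98 in BMP NCSC, 5.79 to 8.59 in rNCSC and 5.93 to 6.18 in SCSC, with rNCSC replicate 3 the highest of its group. In that replicate Foxc1 alone was high, at 8.45, while Aldh1a2, Crabp2, Foxc2, Islr and Ogn were under 4 in rNCSC. The high sums in BMP NCSC did not hold for every marker. There Foxd3 of the crest list, Col1a2 of the mesenchyme list and Aldh1a2 and Crabp2 of the meningeal list were under 4, and Col1a1 averaged 4.12. The sensory neuron markers Isl1 and Pou4f1 and the endothelial markers Cdh5, Kdr, Pecam1 and Tek were under 4 in all 3 groups. Of the remaining sensory neuron markers, Tubb3 differed by -0.30 against rNCSC and -1.23 against SCSC and was called lower against SCSC, and Avil and Prph did not meet the threshold on level. The endothelial marker Egfl7 averaged 7.49 ± 0.39 in BMP NCSC, 4.97 ± 0.16 in rNCSC and 5.18 ± 0.10 in SCSC and was called higher in BMP NCSC in both comparisons. In bulk samples fewer cells of a type and less RNA per cell cannot be told apart, and the part of these shifts in the results below was not tested.

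Against both spheres grown without BMP4, imprinted genes differed in both directions in BMP NCSC, from -8.76 for Nnat to 7.39 for Meg3 against rNCSC and from -9.04 for Nnat to 7.39 for Meg3 against SCSC (log2). Meg3, Rian, Plagl1, Igf2r, Airn and Dlk1 were higher in BMP NCSC, while Nnat, Nap1l5 and Peg12 were lower. Values are log2 GCRMA levels, and a probe set was tested when it reached 5 on at least 3 arrays, which 47 of the 96 probe sets and 24 of the 36 genes did (each gene by whichever of its probe sets had the highest mean). A probe set or gene was called at an adjusted p under 0.05 and a difference of at least 1 on the log2 scale. Against rNCSC, 11 of 24 genes were called higher and 7 lower, beside 22.6% higher and 21.3% lower among the 10319 genes tested. Against SCSC, 10 of 24 were called higher and 7 lower, beside 22.9% and 24% among all genes tested. In probe sets, 25 of 47 were higher and 10 lower against rNCSC (20.6% and 21.8% of all 19914), and 24 were higher and 9 lower against SCSC (21.3% and 23.8%). The median difference over the 24 genes was 0.52 against rNCSC and 0.57 against SCSC, beside medians of -0.07 and -0.10 over all genes tested.

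Several members could pass the threshold on level only through 1 group. Dlk1, Meg3 and Rian reached 5 on no rNCSC or SCSC array, so their direction was fixed by the choice of probe sets, and 13 of the 47 tested probe sets were of this kind. Cdkn1c, Mkrn3, Nnat and Nap1l5 reached 5 on no BMP NCSC array. Among the 17 genes at 5 or more on some array of BMP NCSC and on some array outside it, 8 were called higher and 3 lower than in rNCSC, beside 18.3% and 17.4% of the 8739 genes tested under the same condition. Against SCSC 7 of the 17 were higher and 3 lower, beside 18.6% and 20.2%. Without BMP NCSC replicate 2, 7 genes were called higher than in rNCSC and 6 higher than in SCSC. Of the 4 genes lost, Dlk1, Meg3 and Rian were then at 5 or more on only 2 arrays and were not tested, and the difference of Trappc9 fell under 1. When the probe sets of all 9 arrays were kept, leaving out any 1 array gave 10 to 11 and 9 to 11 genes. The 2 comparisons share the BMP NCSC arrays, so their values are given side by side and their likeness is not read as a second result.

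**Figure D1:**
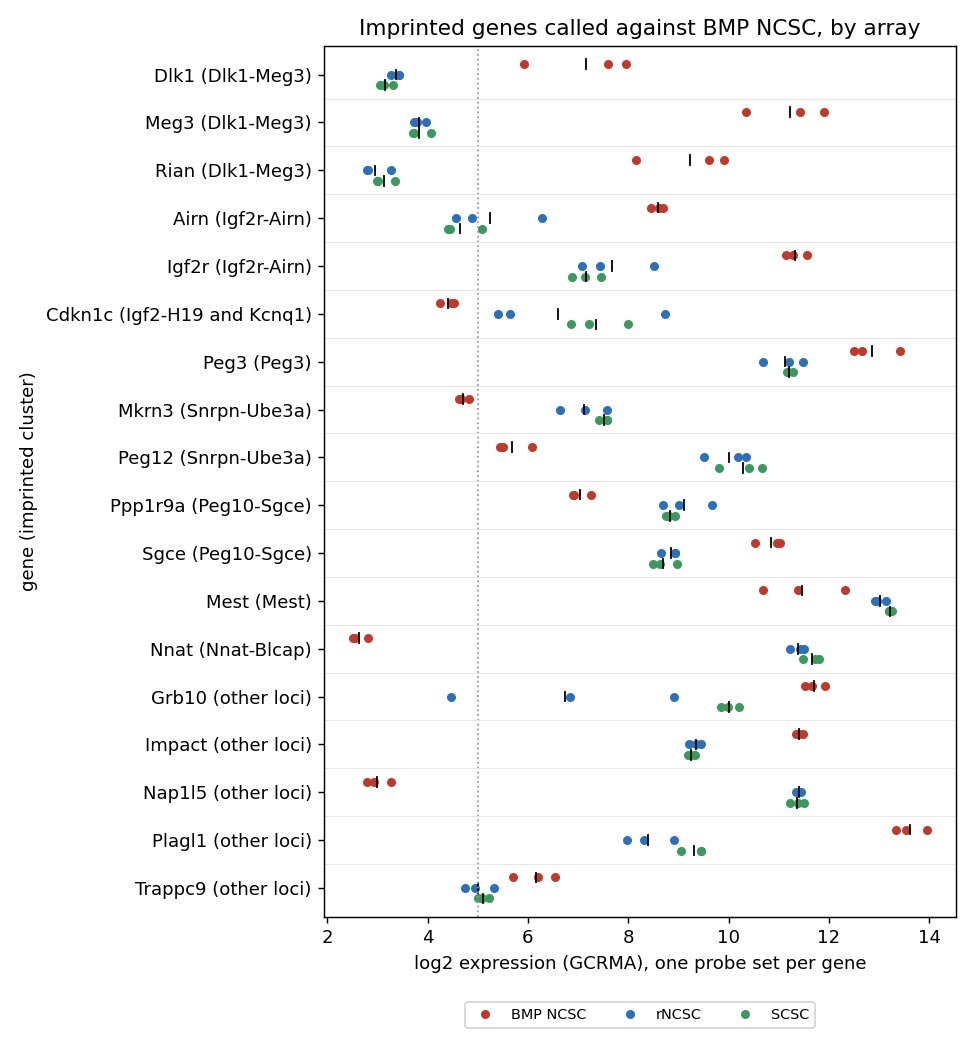
Log2 GCRMA levels (x axis) of the 18 imprinted genes called in BMP NCSC against rNCSC or SCSC (y axis, with their cluster), each by 1 probe set; points are single arrays, black ticks are group means of 3 arrays and the dotted line is the level of 5. For Meg3 the BMP NCSC arrays sit between 10.35 and 11.90 and the other 6 arrays between 3.71 and 4.06, and for Nnat the order is turned round.

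The Dlk1-Meg3 cluster on chromosome 12 held Meg3 and Rian, the 2 members with the greatest positive difference against rNCSC. Meg3 is a maternally expressed long noncoding RNA of this cluster. It measured 11.42, 10.35 and 11.90 on the BMP NCSC arrays, 3.79, 3.97 and 3.72 on the rNCSC arrays and 3.74, 3.71 and 4.06 on the SCSC arrays. All 3 BMP NCSC arrays lay far above the other 6, and the groups did not overlap. The difference was 7.39 ± 0.34 (adjusted p = 1.58e-07) against rNCSC and 7.39 ± 0.34 (adjusted p = 1.5e-07) against SCSC. Rian, the maternally expressed noncoding RNA that carries many small nucleolar RNAs, measured 9.60, 8.15 and 9.92 on the BMP NCSC arrays, 2.82, 3.26 and 2.79 on the rNCSC arrays and 3.02, 2.99 and 3.36 on the SCSC arrays. Its BMP NCSC arrays were again the 3 highest. It differed by 6.27 ± 0.40 (adjusted p = 1.35e-06) against rNCSC and 6.10 ± 0.40 (adjusted p = 1.49e-06) against SCSC. Dlk1, a paternally expressed transmembrane protein with EGF-like repeats that is known as a noncanonical Notch ligand, measured 7.60, 5.92 and 7.96 on the BMP NCSC arrays, 3.42, 3.27 and 3.42 on the rNCSC arrays and 3.04, 3.13 and 3.30 on the SCSC arrays, with BMP NCSC apart from both other groups. The Dlk1 difference was 3.79 ± 0.44 (adjusted p = 5.87e-05) against rNCSC and 4.0 ± 0.44 (adjusted p = 3.81e-05) against SCSC. Levels under 4 are near the low end of GCRMA values, so the size of a difference against them is uncertain.

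All 9 tested probe sets of the cluster were called higher in BMP NCSC in both comparisons: 6 of Meg3, 2 of Rian and 1 of Dlk1. Each of the 9 met the threshold on level through BMP NCSC alone, so the count describes them and has no weight of its own. Their differences for Meg3 ran from 2.32 to 8.20 against rNCSC and from 2.36 to 8.10 against SCSC. The other 5 Meg3 probe sets did not reach 5 on 3 arrays. BMP NCSC replicate 2 was the lowest and replicate 3 the highest BMP NCSC array in each of the 9 tested probe sets. Of the 7 marker lists, the summed level was lowest in BMP NCSC replicate 2 for 4 (neural progenitor, mesenchyme and cartilage, endothelium and meningeal fibroblast) and in replicate 1 for 3, and 1 list, endothelium, had the order of the cluster, at 7.77, 7.36 and 8.02 in replicates 1, 2 and 3. Egfl7 was the brightest endothelial marker there. Single genes outside the cluster had this order too, among them the markers Acan, Islr and Snai2 and the members Peg3, Plagl1, Grb10 and Mest. Others did not, among them Sox10, Igf2r and Sgce. Meningeal fibroblast markers summed to 13.98, 13.20 and 13.83, and within that list Islr and Ogn were lowest in replicate 2 while Foxc1 and Foxc2 were lowest in replicate 3. The part of these markers in the spread of the cluster was not tested. Mirg, a maternally expressed microRNA host RNA of the same cluster, measured 4.36, 4.10 and 4.58 on the BMP NCSC arrays, 3.88, 3.64 and 3.99 on the rNCSC arrays and 3.68, 3.59 and 3.79 on the SCSC arrays, and did not meet the threshold on level.

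**Figure D2:**
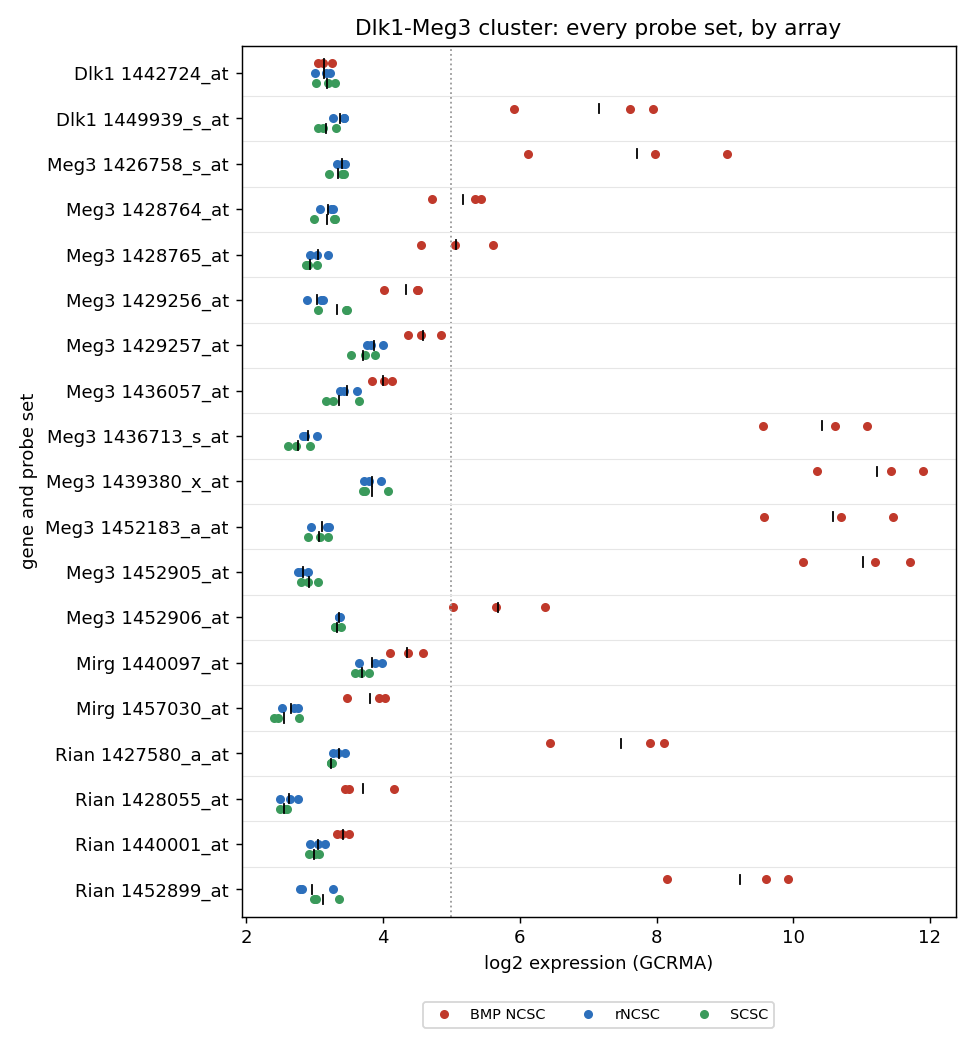
Log2 GCRMA levels (x axis) of every probe set of Dlk1, Meg3, Mirg and Rian (y axis), with single arrays as points, group means as black ticks and the level of 5 as a dotted line. No rNCSC or SCSC array reaches 5 in any of these probe sets, and BMP NCSC arrays reach 11.90 in Meg3.

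The promoters of the 3 genes with the greatest rise against rNCSC are printed, chosen by that difference and not by CpG content. Windows run from 250 bases before to 50 after the start, 5′ to 3′, credited to RefSeq with build GRCm38.p6, and capitals mark CpG pairs.
Meg3 (chr12:109540746-109541045, plus strand): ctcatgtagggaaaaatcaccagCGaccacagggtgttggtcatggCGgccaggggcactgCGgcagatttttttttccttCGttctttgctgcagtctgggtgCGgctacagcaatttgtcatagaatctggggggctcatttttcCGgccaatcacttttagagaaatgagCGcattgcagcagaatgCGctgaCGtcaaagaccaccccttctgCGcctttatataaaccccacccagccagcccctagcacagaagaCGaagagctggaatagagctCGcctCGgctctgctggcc
Rian (chr12:109603695-109603994, plus strand): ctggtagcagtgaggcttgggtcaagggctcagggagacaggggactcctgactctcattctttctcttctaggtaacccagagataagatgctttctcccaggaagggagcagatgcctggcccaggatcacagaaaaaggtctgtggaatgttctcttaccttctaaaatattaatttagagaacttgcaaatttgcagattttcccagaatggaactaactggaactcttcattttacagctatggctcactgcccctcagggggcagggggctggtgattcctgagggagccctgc
Plagl1 (chr10:13090582-13090881, plus strand): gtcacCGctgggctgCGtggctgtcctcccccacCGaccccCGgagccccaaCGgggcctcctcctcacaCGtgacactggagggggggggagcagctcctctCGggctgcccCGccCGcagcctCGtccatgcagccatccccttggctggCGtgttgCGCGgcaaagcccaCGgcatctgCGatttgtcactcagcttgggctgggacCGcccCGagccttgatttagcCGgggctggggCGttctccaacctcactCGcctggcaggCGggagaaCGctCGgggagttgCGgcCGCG
The Meg3 window held 13 CpG pairs, the Rian window 0 and the Plagl1 window 26.

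The Igf2r-Airn pair on chromosome 17 also rose. Igf2r is the maternally expressed mannose 6-phosphate receptor that carries IGF2 to lysosomes, and it measured 11.57, 11.29 and 11.13 on the BMP NCSC arrays, 7.44, 7.07 and 8.51 on the rNCSC arrays and 7.46, 6.87 and 7.14 on the SCSC arrays. Airn, the paternally expressed RNA that overlaps it antisense, measured 8.70, 8.44 and 8.62 on the BMP NCSC arrays, 4.89, 4.57 and 6.28 on the rNCSC arrays and 4.42, 5.09 and 4.44 on the SCSC arrays. BMP NCSC arrays lay above all others for each gene, and rNCSC replicate 3 was the highest rNCSC array for both. The Igf2r difference was 3.66 ± 0.34 (adjusted p = 1.36e-05) against rNCSC and 4.17 ± 0.34 (adjusted p = 5.48e-06) against SCSC. Airn differed by 3.34 ± 0.40 (adjusted p = 7.15e-05) against rNCSC and 3.94 ± 0.40 (adjusted p = 2.3e-05) against SCSC. Both tested probe sets of each gene were called higher in both comparisons. The sources used here do not state the strand of the probes, so signal of the overlapping pair cannot be told apart with certainty.

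Plagl1, also called Zac1, is a paternally expressed zinc finger transcription factor known to slow growth. It measured 13.54, 13.33 and 13.95 on the BMP NCSC arrays, 8.31, 8.91 and 7.97 on the rNCSC arrays and 9.04, 9.44 and 9.46 on the SCSC arrays. All BMP NCSC arrays exceeded 13, and the remaining arrays stayed below 10. Its difference was 5.21 ± 0.26 (adjusted p = 2.52e-07) against rNCSC and 4.30 ± 0.26 (adjusted p = 7.79e-07) against SCSC. The 2 other tested Plagl1 probe sets, with differences of 2.38 and 3.06 against rNCSC, reached 5 on BMP NCSC arrays alone, so their direction was fixed by the threshold on level. Grb10, an adaptor that binds insulin and IGF receptors, measured 11.66, 11.53 and 11.92 on the BMP NCSC arrays, 6.84, 8.91 and 4.46 on the rNCSC arrays and 9.85, 10.20 and 9.99 on the SCSC arrays. BMP NCSC was highest, SCSC intermediate and rNCSC wide, with replicate 3 at 4.46 and replicate 2 at 8.91. Grb10 differed by 4.96 ± 0.89 (adjusted p = 0.000877) against rNCSC, and by 3.82 without rNCSC replicate 3 and 6.05 without rNCSC replicate 2. Against SCSC the difference of 1.69 ± 0.89 (adjusted p = 0.114) was not called, although no arrays overlapped. In a fit of only those 6 arrays it was called, with an adjusted p of 4.17e-05, as it was in the fits without rNCSC replicate 2 (adjusted p = 0.0181) or replicate 3 (adjusted p = 0.00894). The fit over 9 arrays includes the rNCSC spread, an SD of 2.23. The second tested Grb10 probe set differed by 3.03 against rNCSC and 2.52 against SCSC, and it too reached 5 on BMP NCSC arrays alone, which fixed its direction.

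Peg3 is a paternally expressed zinc finger protein, and its 3 tested probe sets were all higher. Its brightest probe set measured 12.65, 12.49 and 13.42 on the BMP NCSC arrays, 11.21, 11.48 and 10.69 on the rNCSC arrays and 11.16, 11.19 and 11.28 on the SCSC arrays. Every BMP NCSC array was above every other array. The difference was 1.73 ± 0.26 (adjusted p = 0.000329) against rNCSC and 1.65 ± 0.26 (adjusted p = 0.000422) against SCSC. Impact, an inhibitor of the amino acid stress kinase GCN2, measured 11.49, 11.35 and 11.39 on the BMP NCSC arrays, 9.22, 9.35 and 9.46 on the rNCSC arrays and 9.25, 9.33 and 9.20 on the SCSC arrays. Its groups did not overlap against BMP NCSC either. Impact differed by 2.07 ± 0.10 (adjusted p = 1.85e-07) against rNCSC and 2.15 ± 0.10 (adjusted p = 1.39e-07) against SCSC. Sgce, which encodes epsilon-sarcoglycan of a membrane complex, measured 10.97, 11.03 and 10.53 on the BMP NCSC arrays, 8.66, 8.93 and 8.94 on the rNCSC arrays and 8.63, 8.97 and 8.49 on the SCSC arrays. The BMP NCSC arrays of Sgce were the 3 highest. Its difference was 2.0 ± 0.17 (adjusted p = 9.03e-06) against rNCSC and 2.15 ± 0.17 (adjusted p = 5.4e-06) against SCSC. Trappc9, a subunit of a vesicle tethering complex, measured 6.20, 6.54 and 5.71 on the BMP NCSC arrays, 4.75, 4.95 and 5.32 on the rNCSC arrays and 5.22, 5.09 and 5.0 on the SCSC arrays, and its BMP NCSC arrays were again above the others. The Trappc9 difference of 1.15 ± 0.22 (adjusted p = 0.00126) against rNCSC and 1.05 ± 0.22 (adjusted p = 0.00203) against SCSC lay near the limit of 1. Without BMP NCSC replicate 2 it was 0.95 and 0.86 and neither call held. Without SCSC replicate 3 it was 0.997 against SCSC and that call was lost.

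The genes that were lower in BMP NCSC included those that were bright in both other groups. Nnat encodes neuronatin, a small membrane protein of neural and endocrine cells, and measured 2.56, 2.51 and 2.81 on the BMP NCSC arrays, 11.43, 11.50 and 11.23 on the rNCSC arrays and 11.72, 11.79 and 11.47 on the SCSC arrays. The gap was wide and no arrays overlapped. It differed by -8.76 ± 0.13 (adjusted p = 3.88e-10) against rNCSC and -9.04 ± 0.13 (adjusted p = 3.11e-10) against SCSC. Nap1l5, a relative of nucleosome assembly proteins, measured 2.94, 3.28 and 2.79 on the BMP NCSC arrays, 11.33, 11.41 and 11.44 on the rNCSC arrays and 11.23, 11.38 and 11.49 on the SCSC arrays. Its BMP NCSC arrays were the 3 lowest. Nap1l5 differed by -8.40 ± 0.14 (adjusted p = 5.7e-10) against rNCSC and -8.36 ± 0.14 (adjusted p = 6.07e-10) against SCSC. Peg12, of the Frat family of GSK3-binding proteins, measured 6.09, 5.44 and 5.50 on the BMP NCSC arrays, 10.19, 9.50 and 10.35 on the rNCSC arrays and 10.41, 9.81 and 10.67 on the SCSC arrays. It too was separated on all arrays. Peg12 differed by -4.34 ± 0.30 (adjusted p = 1.97e-06) against rNCSC and -4.62 ± 0.30 (adjusted p = 1.24e-06) against SCSC.

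The windows of these 3 genes are printed beside the higher ones, with capitals again marking CpG pairs.
Nnat (chr2:157559828-157560127, plus strand): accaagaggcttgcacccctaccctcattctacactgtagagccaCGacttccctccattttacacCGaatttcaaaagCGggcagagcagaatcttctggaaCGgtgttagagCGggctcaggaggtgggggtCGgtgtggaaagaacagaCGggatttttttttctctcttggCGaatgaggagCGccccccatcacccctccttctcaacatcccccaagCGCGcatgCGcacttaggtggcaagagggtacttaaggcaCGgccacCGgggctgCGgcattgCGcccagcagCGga
Nap1l5 (chr6:58907077-58907376, minus strand): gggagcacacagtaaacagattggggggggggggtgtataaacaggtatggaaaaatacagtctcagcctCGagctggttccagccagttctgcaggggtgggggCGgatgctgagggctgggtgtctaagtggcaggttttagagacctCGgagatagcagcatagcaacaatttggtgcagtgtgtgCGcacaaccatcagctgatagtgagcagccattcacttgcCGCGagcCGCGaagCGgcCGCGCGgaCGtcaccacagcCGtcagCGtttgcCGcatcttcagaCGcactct
Peg12 (chr7:62464461-62464760, minus strand): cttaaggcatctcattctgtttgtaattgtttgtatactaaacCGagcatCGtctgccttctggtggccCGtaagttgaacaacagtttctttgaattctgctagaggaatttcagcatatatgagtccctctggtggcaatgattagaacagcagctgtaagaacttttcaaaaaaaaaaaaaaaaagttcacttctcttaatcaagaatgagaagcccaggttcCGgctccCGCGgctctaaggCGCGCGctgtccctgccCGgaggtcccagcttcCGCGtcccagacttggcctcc
They held 17, 17 and 12 CpG pairs.

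The other members that were lower moved less. Mkrn3, a ring finger protein of the same cluster as Peg12, measured 4.63, 4.83 and 4.66 on the BMP NCSC arrays, 7.57, 7.14 and 6.65 on the rNCSC arrays and 7.58, 7.57 and 7.42 on the SCSC arrays. Every BMP NCSC array was below the others. The Mkrn3 difference was -2.41 ± 0.21 (adjusted p = 7.97e-06) against rNCSC and -2.82 ± 0.21 (adjusted p = 2.76e-06) against SCSC. Cdkn1c encodes the cyclin-dependent kinase inhibitor p57 and measured 4.54, 4.47 and 4.24 on the BMP NCSC arrays, 5.41, 8.74 and 5.65 on the rNCSC arrays and 7.22, 7.99 and 6.85 on the SCSC arrays. All BMP NCSC arrays were below the other 6, while rNCSC replicate 2 stood well above replicates 1 and 3. Cdkn1c differed by -2.18 ± 0.78 (adjusted p = 0.0301) against rNCSC and -2.94 ± 0.78 (adjusted p = 0.00739) against SCSC. The call against rNCSC was lost when the fit held only the 6 arrays (adjusted p = 0.0561) or when BMP NCSC replicate 1, 2 or 3 was left out (0.0622, 0.0658 and 0.0743), and without rNCSC replicate 2 the difference was -1.11. Ppp1r9a, which encodes the actin-binding protein neurabin, measured 6.91, 6.91 and 7.26 on the BMP NCSC arrays, 8.69, 9.01 and 9.66 on the rNCSC arrays and 8.76, 8.81 and 8.92 on the SCSC arrays. All 3 tested probe sets of this gene were called lower in both comparisons, 1 of them with no BMP NCSC array at 5, which fixed its direction. The difference of the brightest was -2.09 ± 0.23 (adjusted p = 3.79e-05) against rNCSC and -1.80 ± 0.23 (adjusted p = 9.1e-05) against SCSC. Mest, an alpha/beta hydrolase family member, measured 11.39, 10.68 and 12.31 on the BMP NCSC arrays, 12.97, 13.14 and 12.93 on the rNCSC arrays and 13.26, 13.20 and 13.19 on the SCSC arrays. The BMP NCSC arrays were lowest and the widest apart. Mest differed by -1.55 ± 0.34 (adjusted p = 0.00268) against rNCSC and -1.75 ± 0.34 (adjusted p = 0.00125) against SCSC.

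6 of the 24 genes were called in neither comparison: Copg2, Cd81, Ndn, Ube3a, Gnas and Blcap. Copg2, a coat protein of vesicles that overlaps Mest, had a difference of 0.74 against rNCSC and 0.79 against SCSC. Cd81, a tetraspanin, had 0.30 against rNCSC and 0.34 against SCSC. Ndn encodes necdin, a protein of postmitotic neurons, and had 0.17 against rNCSC and -0.17 against SCSC. Its level was high in every group, at 12.66, 12.75 and 12.78 on the BMP NCSC arrays, 12.38, 12.77 and 12.54 on the rNCSC arrays and 12.92, 12.81 and 12.98 on the SCSC arrays. Ube3a, a ubiquitin ligase, had -0.59 against rNCSC and -0.44 against SCSC, and 1 of its 3 tested probe sets was called lower than in rNCSC, at -1.04. Gnas, the stimulatory G protein subunit, had 0.24 against rNCSC and 0.22 against SCSC, and Blcap, which contains Nnat within its span, had 0.026 against rNCSC and 0.22 against SCSC. So Nnat was lower while the gene around it was not called. In all 24 genes the BMP NCSC arrays did not overlap those of SCSC, beside 83.6% of all genes tested, and 13 were higher and 8 lower without overlap against rNCSC, beside 37.2% and 42.3%.

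Both directions were seen in both parental groups. Of 12 tested paternally expressed genes, 6 were higher and 5 lower in BMP NCSC in each comparison, Dlk1 among the higher. Of 9 tested maternally expressed genes, 4 were higher and 2 lower in each comparison, Meg3 and Rian among the higher. The direction of those 3 genes was fixed by the threshold on level, and so was that of Nnat, Nap1l5 and Mkrn3 (paternal) and Cdkn1c (maternal) among the lower. Among all genes tested 22.6% were higher and 21.3% lower than in rNCSC, and 22.9% and 24% than in SCSC, and with so few genes in a class nothing is read from the counts. Of the 3 genes classed as differing by isoform or tissue, 1 was called higher against rNCSC and 0 against SCSC. By cluster, Igf2r and Airn were both higher in both comparisons, Snrpn-Ube3a had 2 of 4 tested genes lower and none higher, and the Peg10-Sgce cluster had 1 of 2 higher and 1 lower.

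**Figure D3:**
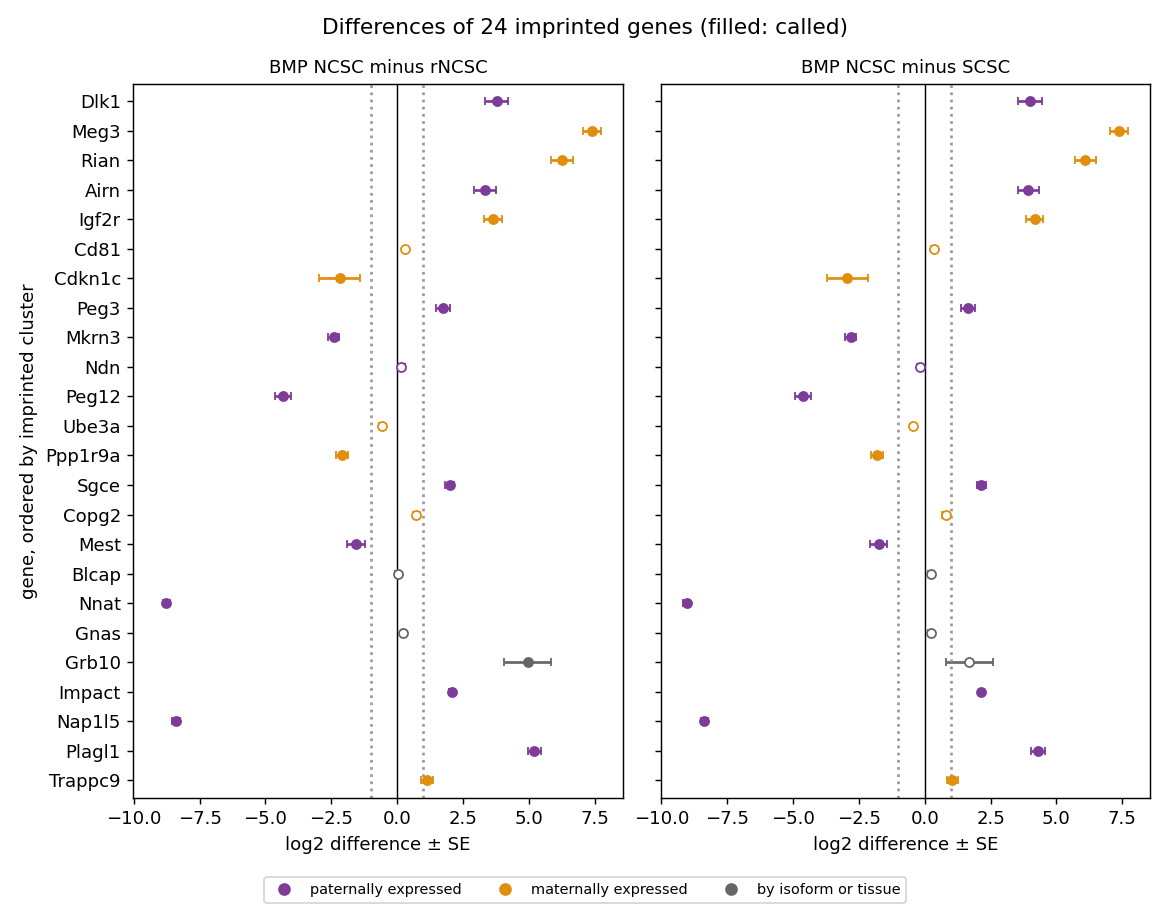
Log2 differences ± SE (x axis) of the 24 tested imprinted genes (y axis) for BMP NCSC minus rNCSC on the left and BMP NCSC minus SCSC on the right, coloured by parental class, with filled points called and dotted lines at -1 and 1. Meg3 is the highest at 7.39 in each panel and Nnat the lowest, at -8.76 and -9.04.

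12 genes did not meet the threshold on level: Igf2, Mirg, Zim1, Usp29, Phlda2, Ascl2, Snrpn, Magel2, Peg10, Asb4, Rasgrf1 and Zdbf2. Their values on the 9 arrays lay between 2.69 and 6.28. Snrpn is placed here by its only probe set of 1 symbol. The brightest probe set shared by Snurf and Snrpn lay between 7.91 and 8.51 on the 9 arrays, so a low level of Snrpn RNA is not shown. Igf2, the growth factor cleared by Igf2r, measured 4.39, 4.47 and 4.63 on the BMP NCSC arrays, 3.83, 3.62 and 3.95 on the rNCSC arrays and 3.75, 3.56 and 3.77 on the SCSC arrays, and its BMP NCSC arrays were the 3 highest. Magel2, a protein of the necdin family, measured 4.01, 3.85 and 3.93 on the BMP NCSC arrays, 4.17, 4.69 and 3.85 on the rNCSC arrays and 4.98, 5.11 and 5.50 on the SCSC arrays. SCSC was highest there. A fit with no threshold on level, over 45037 probe sets, called Magel2 lower in BMP NCSC than in SCSC, at -1.26 (adjusted p = 0.000728). By the brightest probe set of each, none of the other 11 genes was called in any comparison. A dimmer Mirg probe set was called higher in BMP NCSC, at 1.16 against rNCSC and 1.26 against SCSC, and a dimmer Ascl2 probe set was called lower than in SCSC, at -1.08.

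Between rNCSC and SCSC, spheres of ganglion and of spinal cord in the same medium, no imprinted gene was called. With limma 0 of the 24 genes and 0 of the 47 probe sets were called in either direction, beside 0.00969% of all genes and 0.00502% of all probe sets. At an unadjusted p under 0.05 there were 3 of 24 genes (13.1% of all genes tested) and 9 of 47 probe sets (13% of all). The 3 genes were Grb10, Plagl1 and Ndn. The 9 probe sets included all 5 tested ones of Ndn, which measure 1 gene and differed by -0.51 to -0.34. Arrays did not overlap for 2 genes higher and 4 lower in rNCSC, beside 5.62% and 15.1% of all genes tested. Every rNCSC array of Plagl1 was below every SCSC array, with a difference of -0.92 ± 0.26 (adjusted p = 0.229), and Magel2 had -0.96, outside the tested set. Grb10 had the greatest difference, -3.28 ± 0.89 (adjusted p = 0.219). Without rNCSC replicate 2 the Grb10 difference was -4.36 and was called (adjusted p = 0.029), in a fit that called 25 higher and 58 lower of all probe sets. Without rNCSC replicate 3 it was -2.14 and was not called.

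**Figure D4:**
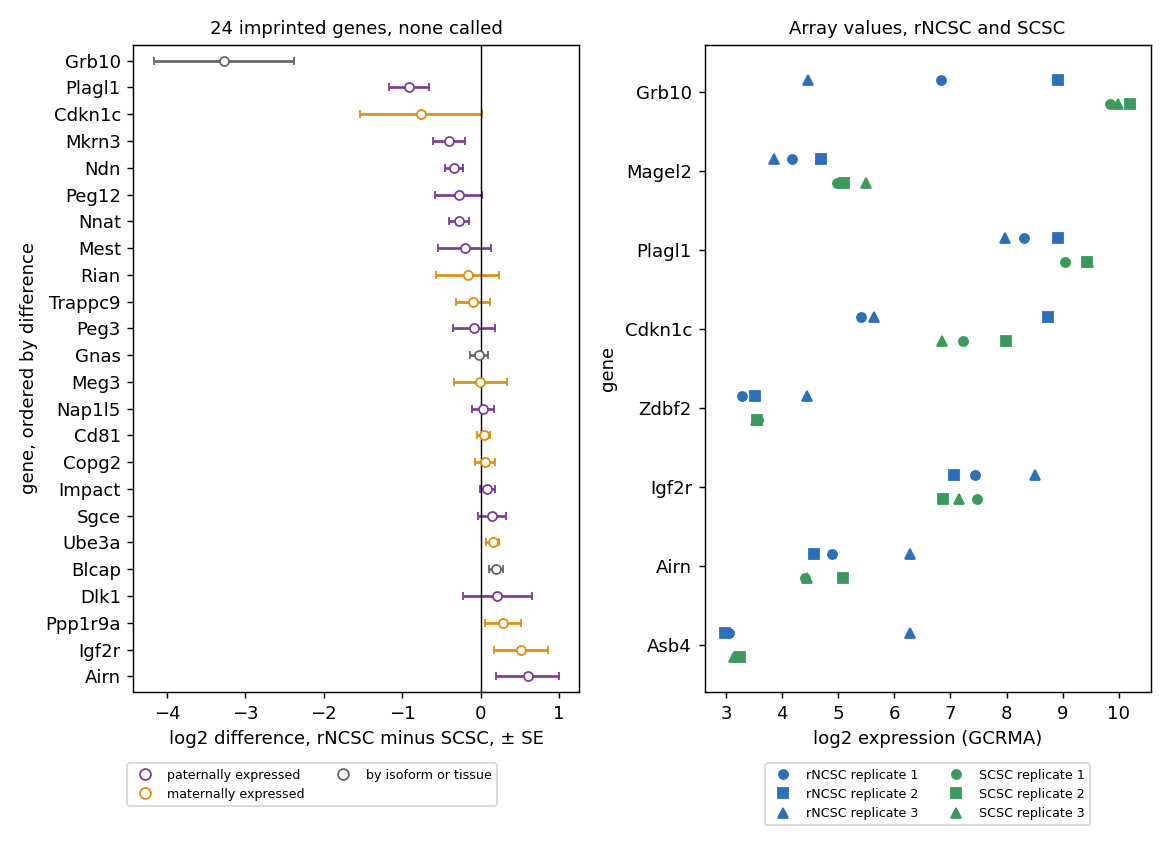
On the left, log2 differences ± SE of the 24 tested imprinted genes for rNCSC minus SCSC, none of which was called; on the right, log2 GCRMA levels on the rNCSC and SCSC arrays for the 8 genes with an SD over 0.5 in rNCSC or with groups apart by at least 0.5, marker shapes giving the replicate. Grb10 runs from 4.46 to 8.91 in rNCSC and from 9.85 to 10.20 in SCSC.

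The spread between arrays was wide in a few members. An SD over 0.5 was found for 4 of 24 genes in BMP NCSC (Dlk1, Meg3, Rian and Mest), 4 in rNCSC (Igf2r, Cdkn1c, Grb10 and Airn) and 1 in SCSC (Cdkn1c). These were 16.7%, 16.7% and 4.17% of the 24 genes. Among all tested probe sets the shares were 7.19% in BMP NCSC, 9.35% in rNCSC and 2.55% in SCSC. Those shares count probe sets and not genes, so they are not a like comparison. In all 4 of the BMP NCSC genes replicate 2 was the lowest array. In rNCSC, replicate 3 was highest for Igf2r and Airn and lowest for Grb10. Asb4, an ankyrin repeat protein not tested, measured 3.04, 2.98 and 6.28 on the rNCSC arrays. That replicate also had the highest summed meningeal fibroblast markers of its group, at 8.59 beside 6.63 and 5.79, which rested on Foxc1 and not on the other 5 markers of that list.

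Promoter windows of 33 of the 40 genes were described. Only the outermost window of each gene was used, and 9 members had more than 1 window. Their median count was 15 CpG pairs, beside 7 over all 27025 windows of 300 bases, and counts ran from 0 in Rian to 45 in Grb10. TGCCGC, the hexamer known to be bound by ZFP57 when methylated, searched on both strands with its reverse complement GCGGCA, was in 8 of the 33 windows (24.2%) and in 11.6% of all. GGGGCCCC, a consensus for PLAGL1 that is its own reverse complement, was in 3 windows (9.09%) and in 1.06% of all. The windows of Peg3 and Usp29, which run in opposite directions, overlap and both hold it. The median GC share was 57.67% in member windows and 52.67% in all windows. Both motifs are rich in G and C, so the motif shares do not compare like windows. The 8 genes called higher than in rNCSC with a window held 0 to 45 CpG pairs (median 13) and the 6 called lower held 8 to 17 (median 13.5). A match is a description of letters in the window and not a binding site.

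Further imprinted genes, taken as a list of 44, moved in both directions too. Of 20 tested, 8 were higher and 6 lower in BMP NCSC than in rNCSC (22.6% and 21.3% of all genes), and 7 were higher and 7 lower than in SCSC (22.9% and 24%), with none called between rNCSC and SCSC. Gatm, an enzyme of creatine synthesis, averaged 2.85 ± 0.30 in BMP NCSC, 11.23 ± 0.54 in rNCSC and 11.38 ± 0.20 in SCSC (SD, n = 3 each), lowest in BMP NCSC on every array. Dcn, the matrix proteoglycan decorin, averaged 11.16 ± 1.21 in BMP NCSC, 2.85 ± 0.065 in rNCSC and 2.80 ± 0.22 in SCSC, the other way. Dcn, Cobl and Atp10a were under 5 on every rNCSC and SCSC array and Gatm on every BMP NCSC array, so the threshold on level fixed their direction. Cobl, an actin nucleator, differed by 4.35 against rNCSC and 4.33 against SCSC, and Atp10a, a lipid flippase, by 4.27 against rNCSC and 3.73 against SCSC. Qpct, a glutaminyl cyclase, differed by -2.39 against rNCSC and -2.43 against SCSC, and Pon2, a paraoxonase, by 1.71 against rNCSC and 2.10 against SCSC.

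Of 18 listed genes that set, keep, read or remove DNA methylation or repressive chromatin marks, including those of imprints, 13 were tested. In each comparison with BMP NCSC 0 were higher and 7 lower, beside 21.3% of all genes lower than in rNCSC and 24% lower than in SCSC, and 0 were called between rNCSC and SCSC. Uhrf1, which brings the maintenance methyltransferase to newly copied DNA, averaged 4.92 ± 0.29 in BMP NCSC, 10.50 ± 0.15 in rNCSC and 10.93 ± 0.16 in SCSC. It differed by -5.58 ± 0.16 (adjusted p = 1.17e-08) against rNCSC and -6.01 ± 0.16 (adjusted p = 7.21e-09) against SCSC. Dnmt1, that methyltransferase, averaged 8.45 ± 0.56 in BMP NCSC, 11.18 ± 0.18 in rNCSC and 11.52 ± 0.094 in SCSC, again lowest in BMP NCSC. Ezh2, a Polycomb methyltransferase, differed by -3.71 against rNCSC and -3.79 against SCSC. Trim28, a corepressor of zinc finger proteins, differed by -1.67 against rNCSC and -2.0 against SCSC, its partner Setdb1 by -1.46 against rNCSC and -1.72 against SCSC, and the demethylase Tet1 by -1.45 against rNCSC and -1.04 against SCSC. Dnmt3a, a de novo methyltransferase, was not called, with 0.22 against rNCSC and 0.34 against SCSC. Zfp57 and Dnmt3l did not meet the threshold on level. All 5 tested cell cycle markers were also lower in BMP NCSC, and their summed level was 8.72 to 9.84 in BMP NCSC, 14.28 to 14.36 in rNCSC and 14.36 to 14.41 in SCSC. The part of cell division in the lower levels was not tested.

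**Figure D5:**
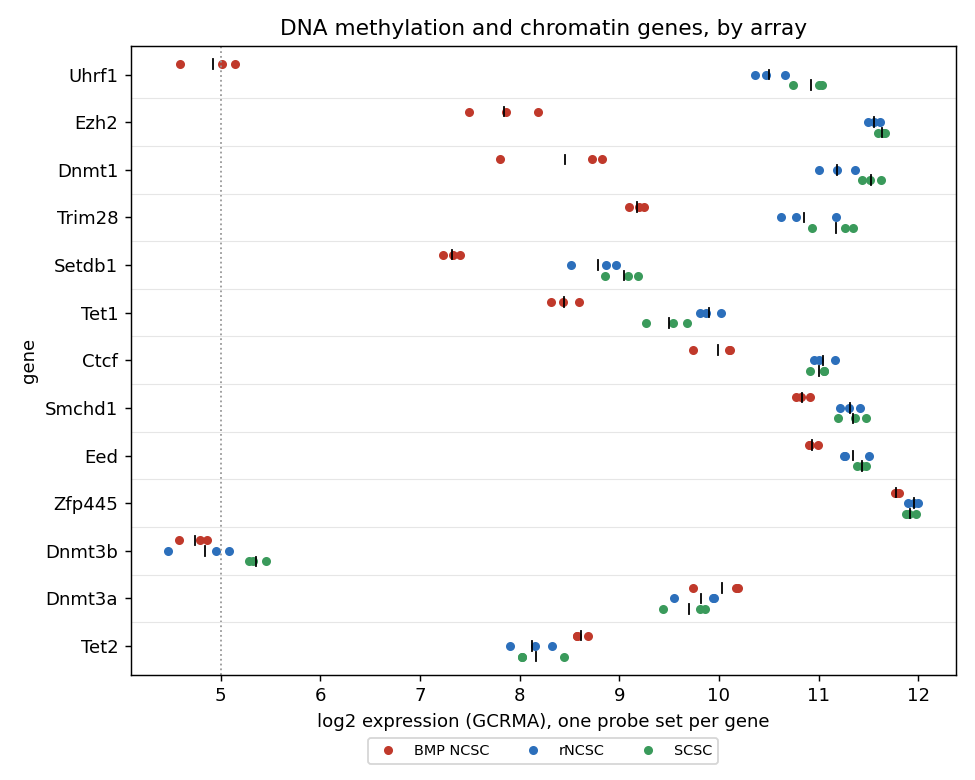
Log2 GCRMA levels (x axis) of the 13 tested genes that act on DNA methylation or repressive chromatin marks (y axis), each by 1 probe set, with single arrays as points, group means as black ticks and the level of 5 as a dotted line. For Uhrf1 the BMP NCSC arrays lie between 4.60 and 5.15 and all others above 10, and for Dnmt3a the groups overlap.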

How the data were processed

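The 9 arrays were placed in groups by their titles, which number the replicates 1 to 3. The deposited values are log2 levels, 1 per probe set, made by the authors with GCRMA, per the submitters' processing notes, and the sources used here name no version. The method corrects background by probe sequence and normalizes the arrays together, so a change in total RNA per cell would not show. Array medians ran from 3.99 to 4.03. Total RNA was isolated by TRIzol and column purification, per the labels' protocols.

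Of 45101 probe sets, 64 controls were left out, 34958 had 1 symbol, 932 several and 9211 were unlisted. The 8 probe sets shared by a member and another symbol were left out of all counts. Names and chromosomes came from RefSeq (GRCm38.p6), and all 96 probe sets matched by gene ID.

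limma 3.58.1 in R 4.3.3 fitted group means over 9 arrays (6 residual and 2.51 prior degrees of freedom) to the 19914 probe sets that reached 5 on at least 3 arrays, and p-values (two-sided) were adjusted by Benjamini-Hochberg over all of them. The fit was tested on simulated data. Members were named by probe set of highest mean, with values on each array for those called in any comparison or with rNCSC and SCSC apart by at least 0.5. Of the added lists up to 6 called genes with the greatest difference were named. Members and lists were chosen with earlier results of these data known. Alternatives changed the threshold on level, the arrays fitted, the variance model, the normalization, the probe sets used and the limits, and left out each array. The number of arrays limits the precision.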

Additional observations from a re-analysis of the deposited data

How the results depend on the processing

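Among the differences of named members that were still tested under the alternatives, 1560 stayed on the same side of the threshold, 7 became called and 14 lost their call. Differences whose probe set was no longer tested are not in these counts. They were those of Dlk1, Meg3 and Rian without BMP NCSC replicate 1, 2 or 3, and of Dlk1 with a threshold on the mean. The brightest probe sets of Dlk1, Meg3 and Plagl1 also dropped out when names ending in x_at or s_at were left out. Of the called differences 0 changed direction. Some small uncalled differences did change sign: between rNCSC and SCSC that of Peg3 ran from -0.26 to 0.14 when 1 array was left out. Among those still tested, the ones that changed side belong to Cdkn1c, Grb10 and Trappc9, and the cause was not tested. With 1 probe set per gene, 11 probe sets were higher than in rNCSC and 10 higher than in SCSC, since fewer probe sets were then fitted. Leaving out 1 array and applying the threshold on level again gave 12 to 25 probe sets and 7 to 11 genes higher than in rNCSC, 11 to 25 probe sets and 6 to 11 genes higher than in SCSC, and 0 to 1 of either lower in rNCSC than in SCSC. The 1 is Grb10, called without rNCSC replicate 2, also when the probe sets of all arrays were kept (an alternative chosen after seeing the data). Without BMP NCSC replicate 1, 2 or 3 the higher probe sets were 13, 12 and 13 against rNCSC and 12, 11 and 12 against SCSC. Keeping the probe sets of all arrays gave 24 to 25 and 23 to 25. A replicate block gave 11 higher and 7 lower genes against rNCSC, 10 and 7 against SCSC and 0 between rNCSC and SCSC. The labels do not say that the numbers pair the samples, and the main fit did not pair them. Same-numbered arrays had correlations of deviations of 0.054 to 0.352, all above 0, and 3 of the 9 were under 0.1. Differently numbered arrays had -0.338 to 0.210, most of them under 0. Deviations within a group sum to 0, which ties these values together. Whether arrays of the same number shared a batch was not tested. BMP NCSC replicate 2 correlated better with SCSC replicate 1 (0.210) than with SCSC replicate 2 (0.183). Array number limits the precision, and levels under 4 carry little information on size.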

Other observations

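Some imprinted genes lie inside a host gene, and the pairs were compared after their values were seen. Nnat lies inside Blcap, Nap1l5 inside Herc3, Mcts2 inside H13 and Zrsr1 inside Commd1. Herc3 averaged 5.74 ± 0.051 in BMP NCSC, 6.93 ± 0.22 in rNCSC and 7.02 ± 0.22 in SCSC (SD, n = 3 each), and its difference was -1.19 ± 0.14 (adjusted p = 7.75e-05) against rNCSC and -1.28 ± 0.14 (adjusted p = 4.4e-05) against SCSC, beside -8.40 and -8.36 for Nap1l5. Commd1 differed by -1.22 against rNCSC and -1.21 against SCSC, both called. H13 differed by 1.13 against rNCSC (called) and 0.89 against SCSC (under the limit of 1). Mcts2 differed by -0.85 against rNCSC (under the limit) and -1.08 against SCSC (called).

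Probe sets annotated to 2 symbols were credited to neither gene here, though they may measure either. That of Mir675 and H19 measured 4.57, 3.14 and 4.09 on the BMP NCSC arrays, 3.52, 3.80 and 3.70 on the rNCSC arrays and 3.35, 3.68 and 3.86 on the SCSC arrays, and BMP NCSC overlapped both other groups. The brightest of the 6 shared by Snurf and Snrpn measured 8.07, 7.95 and 7.97 on the BMP NCSC arrays, 8.0, 8.07 and 7.91 on the rNCSC arrays and 8.11, 8.23 and 8.51 on the SCSC arrays. A dimmer one measured 6.31 to 6.36 in BMP NCSC, 6.70 to 6.86 in rNCSC and 6.96 to 7.15 in SCSC. Another measured 5.85 to 5.95 in BMP NCSC, 6.14 to 6.32 in rNCSC and 6.39 to 6.60 in SCSC. In these dimmer ones BMP NCSC was below all other arrays, but not in the rest of the 6. Among further imprinted genes, Slc38a4, an amino acid transporter that did not meet the threshold on level, measured 2.79, 4.11 and 6.52 on the BMP NCSC arrays, 1.95, 2.23 and 2.11 on the rNCSC arrays and 2.77, 2.35 and 2.17 on the SCSC arrays, with BMP NCSC replicate 3 well above its group.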
